A study of Mus musculus with 6 samples.

Results

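Maf1 and 8 subunits of RNA polymerase III (Pol III) were followed by RNA-Seq in long-term hematopoietic stem cells (LT-HSCs) of WT and Foxm1 HET mice. The 9 genes (Maf1, Polr3a, Polr3b, Polr3c, Polr3d, Polr3e, Polr3f, Polr3g and Polr3k) are 9 of the 27179 genes with deposited read counts and 9 of the 12179 genes in the deposited normalized table. Maf1 was chosen by a measured value, its adjusted p in the comparison of genotypes given here, and the subunits were chosen by name with the results of that comparison known. The differences between genotypes in these 9 genes are therefore a description and not a test.

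Pol III makes short RNAs that are not translated, among them the tRNAs, 5S ribosomal RNA, U6 and 7SK RNAs and the RNA components of RNase P and RNase MRP. Maf1 is a conserved repressor of Pol III. It is held inactive by phosphorylation, mainly through mTORC1, in well-fed cells, and when nutrients are short or cells are stressed it is dephosphorylated, binds Pol III and blocks initiation. HSCs are known for a low rate of protein synthesis, a process that draws on the tRNAs and 5S ribosomal RNA that Pol III supplies.

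The study set LT-HSCs of Foxm1 HET mice against those of WT mice to look for a mechanism behind the defects of HSCs with less Foxm1, a forkhead transcription factor. LT-HSCs were sorted from bone marrow as CD150+CD48-LSK cells (lineage-negative cells with Sca-1 and c-Kit on their surface, with CD150 and without CD48) from C57BL/6 mice aged 8 weeks, with 3 libraries per genotype. The genotype labels are WT and Foxm1 heterozygous. The titles of the Foxm1 HET libraries name a floxed allele over a WT allele and no Cre. In other experiments of the study, mice with that floxed allele and no Cre are the control group. The study elsewhere deletes the floxed allele with Tie2-Cre, which is active in endothelial and blood cells, or with Mx1-Cre, which is induced by interferon, and its RNA-Seq methods do not name the driver. The methods speak of 3 pairs of mice, so each library is taken to come from separate mice, and no label says whether a library holds pooled animals.

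Reads counted on genes came to between 14573002 and 25798509 per library. Foxm1 HET replicate 2 stood apart, with the fewest counted reads and 4467 genes with at least 10 reads, against 5963 to 9894 genes in the other 5 libraries. Its scaling factor from TMM (edgeR's trimmed mean of M values) was also the lowest, 0.4529 against 0.7566 to 1.6707, so results below are also given without it. Foxm1 itself had WT counts of 1182, 2615 and 2942 and Foxm1 HET counts of 659, 5 and 742, taken in the order of replicates 1, 2 and 3 as throughout. Its log2 fold change, Foxm1 HET minus WT, was -3.3 (SE 2.33, adjusted p = 0.961 in edgeR), so Foxm1 was lower but not called. Of 13 genes that mark LT-HSCs, 8 had at least 10 reads in every library. The exceptions included genes that define the sort. Slamf1, which encodes CD150, had 2, 1572 and 0 WT reads and 8, 0 and 543 Foxm1 HET reads, and Ly6a, which encodes Sca-1, had WT counts of 125, 4 and 2 and Foxm1 HET counts of 2261, 2 and 1597. Cd48, whose product the gate excludes, had up to 6608 reads in WT and up to 1285 in Foxm1 HET.

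Maf1 had few reads in WT LT-HSCs and was present in each Foxm1 HET library, where its level differed by orders of magnitude. Its WT counts were 6, 7 and 18 reads, and its Foxm1 HET counts were 574, 22115 and 840 reads. The genotypes did not overlap, and the highest Foxm1 HET library held most of the Maf1 reads of the series. Per length of transcript, Maf1 stood at 0.372, 0.404 and 0.959 TPM (counts divided by gene length and scaled to a common total) across WT, and at 27.0, 1910 and 44.4 TPM across Foxm1 HET. By TPM it ranked 38th of all genes in Foxm1 HET replicate 2, where it took 0.152% of all counted reads, 3777th and 3127th in Foxm1 HET replicates 1 and 3, and 8050th, 6883rd and 5441st in WT. Of its CPM (counts scaled to a common library size by TMM) summed over the 6 libraries, 98.9% lay in Foxm1 HET replicate 2. In bulk libraries such as these, fewer cells with a transcript and less transcript per cell cannot be told apart.

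The log2 fold change of Maf1, Foxm1 HET minus WT, was 10.98 (SE 2.20, Benjamini-Hochberg adjusted p = 0.00151 in the quasi-likelihood fit of edgeR), and this p chose the gene. On the log2 CPM scale the WT mean of Maf1 was -0.86 ± 0.98 and the Foxm1 HET mean 6.66 ± 4.40 (SD, n = 3 for each). The fold changes of edgeR are fitted to the counts and are not the differences between such means. Maf1 was the 1 gene called among the 8 of these 9 genes that passed the filter on low counts. Over all 8195 genes tested, 27 had an adjusted p under 0.05, or 0.329%, of which 26 were higher in Foxm1 HET (0.317%) and 1 was lower (0.0122%). The member nearest to Maf1 by adjusted p was Polr3a at 0.982, so that no member lay close to the threshold on either side. Without Foxm1 HET replicate 2 the log2 fold change of Maf1 was 5.0 (adjusted p = 0.954), and the adjusted p was 0.207, 0.215 and 0.0553 without WT replicates 1, 2 and 3.

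**Figure D1:**
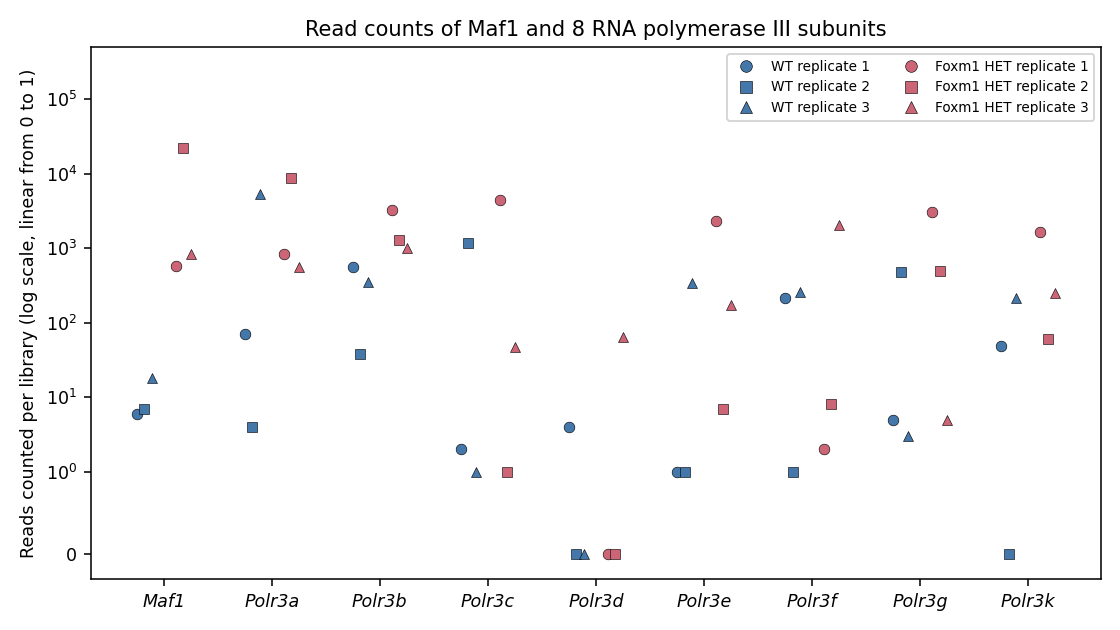
Reads counted per library (log axis, linear from 0 to 1) for Maf1 and the 8 Pol III subunits, with 1 point per library, WT and Foxm1 HET in separate colours and a marker for each replicate. Maf1 lies between 6 and 18 reads in WT and between 574 and 22115 in Foxm1 HET, while most subunits run from a few reads to more than 1000 within a genotype.

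Maf1 lies on chromosome 15 of GRCm38 (chr15:76351294-76354378, plus strand), in 9 exon blocks with a summed exon length of 1749 bases. None of its exon bases belongs to another annotated gene, and 0% of its 50-base transcript stretches occurs in another gene. Sharpin, a component of the LUBAC ubiquitin ligase, is the nearest gene on the side of lower coordinates, on the minus strand with 183 bases between the genes. It had WT counts of 58, 634 and 0 and Foxm1 HET counts of 24, 12 and 1 (log2 fold change -3.63, SE 3.31, adjusted p = 0.993 from edgeR). On the other side, 14519 bases away, Hgh1 had 104 reads in Foxm1 HET replicate 1 and 0 in the other 5 libraries. Neither neighbour had its highest count in Foxm1 HET replicate 2, the library in which Maf1 was highest.

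The 5 genes whose log2 CPM over the 6 libraries was most like that of Maf1 were Erp27, Fam53a, Hoxa5, Prune2 and Igdcc4, with Pearson's r between 0.9857 and 0.9921. They lie on chromosomes 5, 6, 9 and 19, none of them on that of Maf1. Hoxa5, a homeobox transcription factor, came closest in level, with 13, 5 and 29 reads in the WT libraries, as against 396, 18951 and 2283 in those of Foxm1 HET. Erp27, a chaperone-binding protein of the endoplasmic reticulum, had 0 reads in each WT library and 39, 671 and 55 in Foxm1 HET. Between 83.7% and 97.8% of the summed CPM of these 5 genes lay in Foxm1 HET replicate 2. An r of at least 0.95 with Maf1 was found for 34 of the genes tested. The libraries share their depth and scaling across genes, and with 6 points that 1 library dominates, no p is given. Foxm1 HET replicate 2 was the top library by CPM for 19.4% of all genes tested.

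Of the catalytic core, Polr3b was the one subunit with at least 10 reads in all 6 libraries. Polr3b (chr10:84622437-84727178, plus strand, 2.11% of whose exon bases also belong to Gm17249) is the second-largest subunit and forms the active center together with Polr3a, the largest. Its WT counts were 557, 38 and 358, and its Foxm1 HET counts were 3231, 1307 and 996. Each Foxm1 HET library was thus above each WT library in raw counts, and also in CPM scaled by library total alone (27.7, 1.65 and 16.6 in WT against 127, 89.7 and 38.6). With TMM scaling the genotypes overlapped, because Foxm1 HET replicate 3 at 23.8 CPM lay below WT replicate 1 at 25.2 CPM, and they also overlapped in the deposited normalized table. Over all genes tested, 4.87% were higher in Foxm1 HET without overlap in raw counts and 5.05% in CPM by library total, against 5.87% of the genes of the normalized table. The log2 fold change of Polr3b was 2.66 (SE 2.31), from a log2 CPM of 3.32 ± 2.17 (SD, n = 3) in WT to 6.21 ± 1.55 (SD, n = 3) in Foxm1 HET, a difference near the size of its error.

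Polr3a had 70, 4 and 5420 WT reads and 847, 8743 and 566 Foxm1 HET reads. Its WT libraries alone spanned 10.36 on the log2 CPM scale, and WT replicate 3 lay above Foxm1 HET replicates 1 and 3, so the genotypes overlapped. Polr3a lies at chr14:24448694-24487046 on the minus strand, in 31 exon blocks. The log2 fold change of Polr3a was 2.02 (SE 1.65), and without Foxm1 HET replicate 2 it was -2.60.

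Polr3c, Polr3f and Polr3g, which form the subcomplex of Pol III that contacts initiation factors, were each high in some libraries and near 0 in others. They lie apart in the genome, Polr3c at chr3:96711895-96727439 (minus strand), Polr3f at chr2:144527745-144541779 (plus strand) and Polr3g at chr13:81673837-81711013 (minus strand). Polr3c had WT counts of 2, 1172 and 1 and Foxm1 HET counts of 4449, 1 and 48. Polr3f had 217, 1 and 257 reads in the WT libraries, as against 2, 8 and 2027 in those of Foxm1 HET. Polr3g had 5, 479 and 3 WT reads and 3035, 492 and 5 Foxm1 HET reads. The libraries that held the subcomplex were not the same for its members: Foxm1 HET replicate 3 had the highest count of Polr3f and 5 reads of Polr3g, and Foxm1 HET replicate 1 the highest counts of Polr3c and Polr3g and 2 reads of Polr3f. Pearson's r of log2 CPM between Polr3f and Polr3g over the 6 libraries was -0.89, the lowest of the 28 pairs of members tested. The log2 fold changes were 1.18 (SE 2.61) for Polr3c, 0.94 (SE 2.87) for Polr3f and 2.85 (SE 2.73) for Polr3g, and for each the genotypes overlapped.

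Polr3d and Polr3e form a dimer that helps Pol III open promoters and start again after termination. Polr3d lies at chr14:70438748-70443471 (minus strand) and Polr3e at chr7:120917744-120947432 (plus strand). Polr3d was the least detected of the 9 genes, with WT counts of 4, 0 and 0 and Foxm1 HET counts of 0, 0 and 65, and it did not pass the filter. Polr3e had 1, 1 and 341 reads in the WT libraries, as against 2324, 7 and 173 in those of Foxm1 HET. Both partners had at least 10 reads in only 1 library of the 6, Foxm1 HET replicate 3. The log2 fold change of Polr3e was 1.63 (SE 2.88). Polr3k (chr2:181864360-181870830, plus strand), a small subunit needed for RNA cleavage and termination, had 49, 0 and 218 WT reads and 1673, 60 and 250 Foxm1 HET reads. It had at least 10 reads in each Foxm1 HET library and in 2 of the 3 WT libraries, with a log2 fold change of 1.90 (SE 2.95), and the genotypes overlapped.

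On the scale of TPM, which allows levels of different genes to be compared, the 9 genes were low and unevenly spread in WT. Ordered by mean TPM in WT, Polr3a was at 36.5 ± 61.8 (SD, n = 3), Polr3c at 22.0 ± 38.0, Polr3b at 6.74 ± 5.86, Polr3g at 5.36 ± 9.04 and Polr3f at 3.81 ± 3.28. Below them came Polr3k at 2.92 ± 3.60, Polr3e at 2.52 ± 4.32, Maf1 at 0.578 ± 0.330 and Polr3d at 0.0671 ± 0.116. Neighbours in this order differed by less than the larger of their SDs, except Maf1 and Polr3d. In Foxm1 HET the order was Maf1 at 659 ± 1080 TPM, Polr3a at 103 ± 155, Polr3c at 68.8 ± 117, Polr3b at 38.3 ± 18.1 and Polr3g at 35.3 ± 41.8. Polr3k at 19.4 ± 24.1, Polr3e at 16.4 ± 25.0, Polr3f at 15.1 ± 25.9 and Polr3d at 0.930 ± 1.61 TPM followed, and there each neighbour lay within the larger SD of the next. Because 1 library often set the mean, the medians gave another order: in WT Polr3b (6.91 TPM) and Polr3f (5.66 TPM) led, and in Foxm1 HET Maf1 (44.4 TPM) and Polr3b (40.8 TPM).

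The 8 subunits summed to 22.1, 82.6 and 135 TPM across WT, and to 448, 350 and 92.4 TPM across Foxm1 HET. The respective means were 79.9 ± 56.5 and 297 ± 184 (SD, n = 3 for each), and the genotypes overlapped, since Foxm1 HET replicate 3 lay below WT replicate 3. When all 18 Pol III subunits with a row were summed, shared subunits included, the means were 598 ± 764 TPM in WT and 506 ± 259 TPM in Foxm1 HET. These sums were 134, 180 and 1480 TPM across WT, and 625, 684 and 208 TPM across Foxm1 HET. The shared subunit Polr2e alone stood at 1330 TPM in WT replicate 3. Of the 9 genes, 4, 3 and 6 reached 10 reads in WT replicates 1, 2 and 3, while 7, 5 and 8 did so in Foxm1 HET replicates 1, 2 and 3. Foxm1 HET replicates 1 and 3 were also the libraries with the most reads and the most genes detected, and the part of depth in these counts was not tested.

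The spread within a genotype was wide for most of these genes. The range of log2 CPM over the 3 libraries had a median over the 8 members tested of 7.20 for WT and 7.22 for Foxm1 HET, against 5.67 and 5.34 over all genes tested. Maf1 had the smallest range in WT, 1.77, where its counts were low, and ranged over 7.82 in Foxm1 HET. Polr3b ranged over 3.84 in WT and 3.08 in Foxm1 HET, where Polr3k had the smallest range, 2.86. The library with the highest CPM was not the same for all 9 genes. Foxm1 HET replicate 2 was highest for Maf1, Polr3a and Polr3b, replicate 1 for Polr3c, Polr3e, Polr3g and Polr3k, and replicate 3 for Polr3d and Polr3f. Over all genes tested, Foxm1 HET replicate 2 was highest for 19.4%. The shares of the other libraries are not given here, so the list is not read as a difference between genotypes. The highest library of a member held between 44.9% (Polr3g) and 98.9% (Maf1) of its summed CPM, against a median of 55.7% over all genes tested. Of all genes tested, 2516 (30.7%) had at least 10 reads in every library, and of the members Polr3b alone did.

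**Figure D2:**
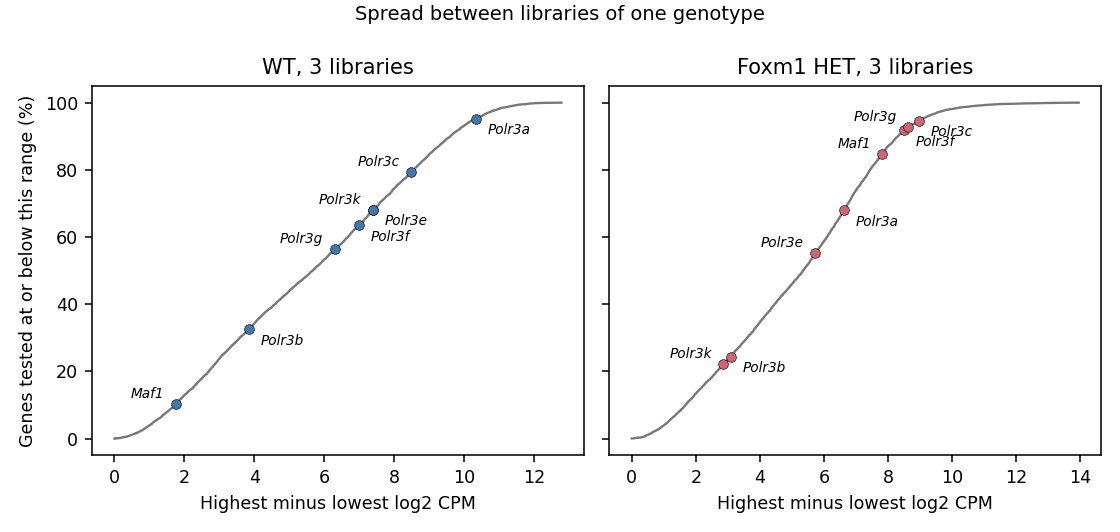
For WT (left) and Foxm1 HET (right), the curve gives the percentage of all genes tested whose highest minus lowest log2 CPM over the 3 libraries is at or below the value on the horizontal axis, and points mark the 8 members tested. In WT, Polr3a lies far to the right at 10.36 and Maf1 far to the left at 1.77, whereas in Foxm1 HET the smallest ranges are those of Polr3k (2.86) and Polr3b (3.08).

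All 7 subunits tested had log2 fold changes above 0 in edgeR, between 0.94 and 2.85 with a median of 1.90, and their SEs lay between 1.65 and 2.95. For Polr3f the mean log2 CPM went the other way, from 1.44 in WT to 1.03 in Foxm1 HET. The alternative fit of Polr3f with limma-voom gave -0.40. Over all genes tested 45.4% were above 0, the median was -0.26 and the median SE was 2.59. None of the 7 was called, with adjusted p from 0.982 to 0.998 in edgeR and none with an unadjusted p under 0.05, which 494 genes (6.03%) had. Of the members, Maf1 alone had genotypes that did not overlap in log2 CPM, where 338 genes (4.12%) did not overlap and were higher in Foxm1 HET, 373 (4.55%) were lower, and 711 (8.68%) were either. The 7 subunits stayed above 0 with each of the 3 other scalings of the libraries. They did not when libraries were left out: without Foxm1 HET replicate 1 the log2 fold changes were -4.59 for Polr3c and -1.31 for Polr3e, and without Foxm1 HET replicate 3 that of Polr3f was -3.80. Across libraries, some members were high in the same libraries and others were not. The median of Pearson's r over the 28 pairs of members tested, Maf1 included, was 0.249, from -0.89 to 0.852 (Polr3b with Polr3k), against 0.0507 over all pairs of genes tested. With Maf1, r was 0.775 for Polr3b, 0.719 for Polr3a and -0.154 for Polr3c, over 6 libraries that share depth and scaling.

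**Figure D3:**
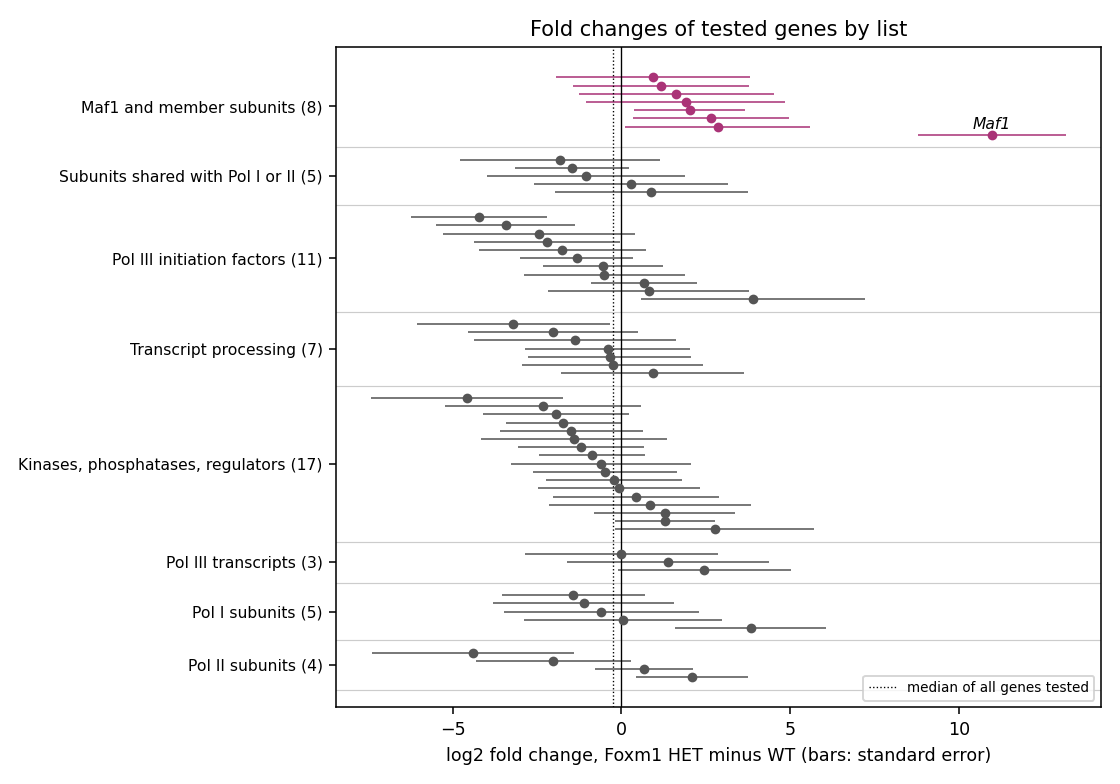
Log2 fold change, Foxm1 HET minus WT (horizontal axis, bars are SEs), of each gene tested in Maf1 and its 7 subunits and in other lists, with the number of genes tested in brackets and the median over all genes as a dotted line. Maf1 stands at 10.98 and the 7 subunits lie from 0.94 to 2.85, within the span of values that the other lists show.

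The promoters of 6 of the 9 genes are in the RefSeq table of GRCm38.p6 used here, which holds 32851 windows of the 250 bases before a gene's start. The loci given above come from the deposited counts, and their starts can differ from those of RefSeq. The Polr3b window ends at 84622297 and the Polr3b locus starts at 84622437. For Polr3e the window ends at 120917777 and the locus starts at 120917744, so the 2 overlap. The windows of Polr3e and Polr3b are printed because the former contains a promoter element of genes that Pol III transcribes, and the latter belongs to the subunit detected in every library. Capitals mark a match to the B box, an internal promoter element of tRNA genes that the factor TFIIIC binds, and the Polr3b window holds no match to any motif searched.
Polr3e, chr7:120917528-120917777, plus strand: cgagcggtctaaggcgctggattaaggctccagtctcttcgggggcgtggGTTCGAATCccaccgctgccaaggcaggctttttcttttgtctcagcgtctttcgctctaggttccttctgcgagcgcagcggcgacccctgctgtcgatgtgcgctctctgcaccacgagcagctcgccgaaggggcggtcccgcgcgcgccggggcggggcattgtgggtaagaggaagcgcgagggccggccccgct
Polr3b, chr10:84622048-84622297, plus strand: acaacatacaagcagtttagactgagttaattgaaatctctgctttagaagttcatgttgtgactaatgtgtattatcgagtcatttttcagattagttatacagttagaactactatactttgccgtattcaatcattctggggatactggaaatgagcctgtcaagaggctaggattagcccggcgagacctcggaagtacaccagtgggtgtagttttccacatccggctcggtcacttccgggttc

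The first bases of the Polr3e window are part of a leucine tRNA gene that RefSeq names n-TLaag4 (chr7:120917517-120917598, 82 bases). The tRNA gene ends 179 bases before the RefSeq start of Polr3e at position 120917778, so a gene transcribed by Pol III lies just upstream of a gene for a Pol III subunit. No tRNA gene has a row in the counts, and the level of this tRNA was not measured. The core of the B box was searched as GTTCGANTC on both strands, a motif added after the window had been seen. It was found in 42 of all 32851 windows, or 0.128%. The other motifs, searched on both strands, were the cell cycle element CHR (TTTGAA, in 16.0% of all windows), a forkhead core (TGTTTA, in 12.0%) and the CCAAT box (CCAAT, in 33.8%). Of the 6 member windows, 0 held the CHR letters, 0 the forkhead letters and 1, that of Polr3k, held CCAAT, in 2 places. The GC content was 42.4% for Polr3b and between 59.6% and 72.4% for the other 5 windows, against a median of 52.4% over all windows.

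The rest of the Pol III system was given by lists of 71 genes with a row, of which 45 were tested. None was called in edgeR, where 1 gene had an unadjusted p under 0.05, while DESeq2 called 2 of the 43 to which it gave an adjusted p, in a fit that called 408 of 7396 genes (5.52%). Of the 45, 14 had log2 fold changes above 0 and 31 below, with a median of -0.54 against -0.26 over all genes. This was not the direction of the 7 member subunits in the same edgeR fit, and the difference between the lists was not tested. Genotypes did not overlap in log2 CPM for 1 gene of these lists that was higher in Foxm1 HET and for 2 that were lower, among them Ppp2cb, against 4.12% and 4.55% of all genes tested.

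Other subunits are found only in Pol III. Crcp, a small subunit, was too low to be tested and had 322 reads in Foxm1 HET replicate 1 and 1 read at most in the others. Polr3gl, the paralog that can take the place of Polr3g, had 89, 1 and 0 reads in the WT libraries, as against 16, 0 and 57 in those of Foxm1 HET (log2 fold change -1.16, SE 2.69). Of the 7 subunits that Pol III shares with Pol I or Pol II, 5 were tested, with 2 above 0 and 3 below. Among them Polr2f was at -1.82 (SE 2.95) and Polr2e at -1.46 (SE 1.70), and 14356 of the Polr2e reads lay in WT replicate 3.

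Of the 16 initiation factors listed, 11 were tested, and 6 of these had 10 reads or more in every library. These factors bring Pol III to its genes: TFIIIC binds the internal promoter, TFIIIB recruits the enzyme, and the SNAPc complex serves genes with an upstream promoter. Of the 11, 3 had log2 fold changes above 0 and 8 below, with a median of -1.32 and a range from -4.22 to 3.90, and none was called. Snapc4, the largest SNAPc subunit, had 25, 17744 and 1064 WT reads and 946, 11 and 802 Foxm1 HET reads. Its log2 fold change of -4.22 (SE 2.01, unadjusted p = 0.0362, adjusted p = 0.768 in edgeR) was the one in these lists with an unadjusted p under 0.05, and 87.4% of its CPM lay in WT replicate 2. Gtf3c6, a TFIIIC subunit, had WT counts of 394, 4381 and 6735 and Foxm1 HET counts of 1321, 111 and 290 (log2 fold change -3.43, SE 2.05). A pair of factors was singled out after their values were seen. Bdp1, a TFIIIB subunit, had 6787, 3683 and 4489 reads in the WT libraries, as against 3617, 6549 and 3965 in those of Foxm1 HET. Its raw counts were close in all libraries, while after TMM scaling Foxm1 HET replicate 2 stood at 1010 CPM and the other 5 libraries between 94.8 and 307 CPM. Gtf3c5, another TFIIIC subunit, had 3, 2 and 1 WT reads and 1587, 3 and 1923 Foxm1 HET reads. It did not pass edgeR's filter and was 1 of the 2 pathway genes that DESeq2 called.

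**Figure D4:**
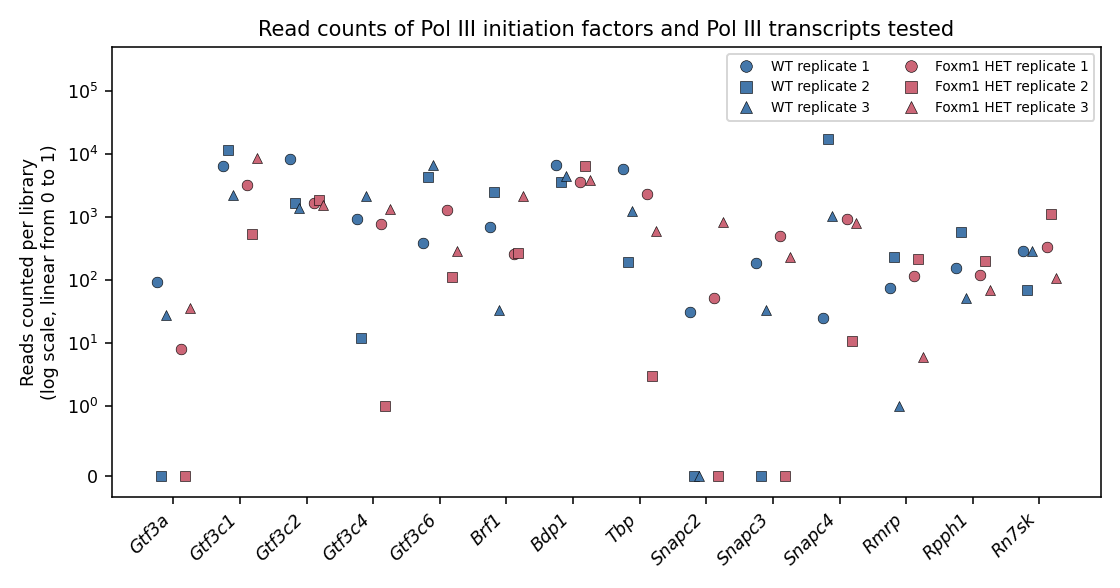
Reads counted per library (log axis, linear from 0 to 1) for the 11 initiation factors and 3 Pol III transcripts tested, with 1 point per library, genotypes in separate colours and a marker for each replicate. Bdp1 lies between 3617 and 6787 reads, whereas Snapc4 runs from 25 to 17744 reads within WT alone.

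Of the 17 tested kinases, phosphatases and other regulators of Maf1 and Pol III, 5 had log2 fold changes above 0 and 12 below, with a median of -0.60, and none was called. Ppp2cb, a catalytic subunit of PP2A, a phosphatase that acts on Maf1, had WT counts of 520, 3196 and 671 and Foxm1 HET counts of 220, 0 and 117. Of the exon bases of Ppp2cb, 11.9% also belong to Ubxn8. The genotypes did not overlap in log2 CPM for Ppp2cb, but it did not pass the test, with a log2 fold change of -4.58 (SE 2.84, adjusted p = 0.938 in edgeR). Mtor, looked up for its role after the values were seen, had 2902, 484 and 2916 WT reads and 2056, 4 and 1394 Foxm1 HET reads (log2 fold change -1.93, SE 2.16), so the genotypes overlapped. Of the 7 tested genes that process Pol III transcripts, 1 was above 0 and 6 below. Trnt1, which adds the CCA end to tRNAs and shares 19.2% of its exon bases with Crbn, was at -3.20 (SE 2.86), and Rpp30, a protein of RNase P, at -2.02 (SE 2.52).

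The products of Pol III were poorly covered. RefSeq lists 430 tRNA genes and 69 genes of 5S ribosomal RNA for this genome. None of the tRNA genes had a row in the counts, and 25 of the 5S genes had a row and no reads. Of 12 other Pol III transcripts listed, 9 had a row and 3 were tested. Rn7sk, the 7SK RNA that holds the elongation factor P-TEFb inactive, had WT counts of 287, 70 and 288 and Foxm1 HET counts of 336, 1141 and 109 (log2 fold change 2.46, SE 2.56). Rpph1, the RNA of RNase P, had 158, 578 and 52 reads in the WT libraries, as against 123, 200 and 70 in those of Foxm1 HET (log2 fold change -0.01, SE 2.86). Rmrp, the RNA of RNase MRP, had 75, 236 and 1 WT reads and 118, 214 and 6 Foxm1 HET reads (log2 fold change 1.38, SE 2.99). The genotypes overlapped for all 3 RNAs. Of the 50-base stretches of Rn7sk and of Rpph1, 68.1% occur in other annotated genes, so their reads could have been split or lost in the counting.

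The polymerases that make ribosomal RNA and mRNA gave a similar picture of scattered counts. Of 5 Pol I subunits tested, 2 had log2 fold changes above 0, with a median of -0.59, and of 4 Pol II subunits 2 were above 0, with a median of -0.67. None of the 9 was called in edgeR or had an unadjusted p under 0.05. Polr1e had WT counts of 0, 151 and 432 and Foxm1 HET counts of 617, 2697 and 1925 (log2 fold change 3.83, SE 2.24). Each Foxm1 HET library was above each WT library in raw counts, but with TMM scaling the genotypes overlapped, with Foxm1 HET replicate 1 at 16.2 CPM and WT replicate 3 at 27.0 CPM. Polr1a was at -1.42 (SE 2.13), Polr2g at -4.39 (SE 2.99) and Polr2m at 2.09 (SE 1.65). Whether the member subunits differ from these lists was not tested.

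Markers of other cells were measured beside Maf1, and Foxm1 HET replicate 2 was the highest library for a few of them. The summed CPM of 6 T and NK cell markers lay between 2.12 and 48.8 for WT, whereas the Foxm1 HET replicates had 8.93, 331 and 20. The value of 331 in Foxm1 HET replicate 2 was the NK cell receptor gene Klrb1c alone, and Cd3e, Cd3d, Cd8a, Trbc1 and Nkg7 were all at 0 there. The 4 endothelial markers summed to between 0.841 and 85.7 CPM for WT, whereas the Foxm1 HET replicates had 51.4, 241 and 23.0. The value of 241 was likewise Pecam1 alone, with Cdh5, Kdr and Emcn at 0 in that library. The 13 LT-HSC markers also summed highest in that library, at 12300 CPM, against 3100 to 7010 in the other 5. The 9 neutrophil markers, 7 of which had at least 10 reads in all libraries, overlapped between genotypes, with 4910 to 18400 CPM in WT and 853 to 16000 in Foxm1 HET. The 6 B cell markers summed to between 12.8 and 269 CPM in WT and at most 4.46 in Foxm1 HET, with Cd79a, Ms4a1 and Ebf1 at 0 in all libraries. Their part in the level of Maf1 was not tested.

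**Figure D5:**
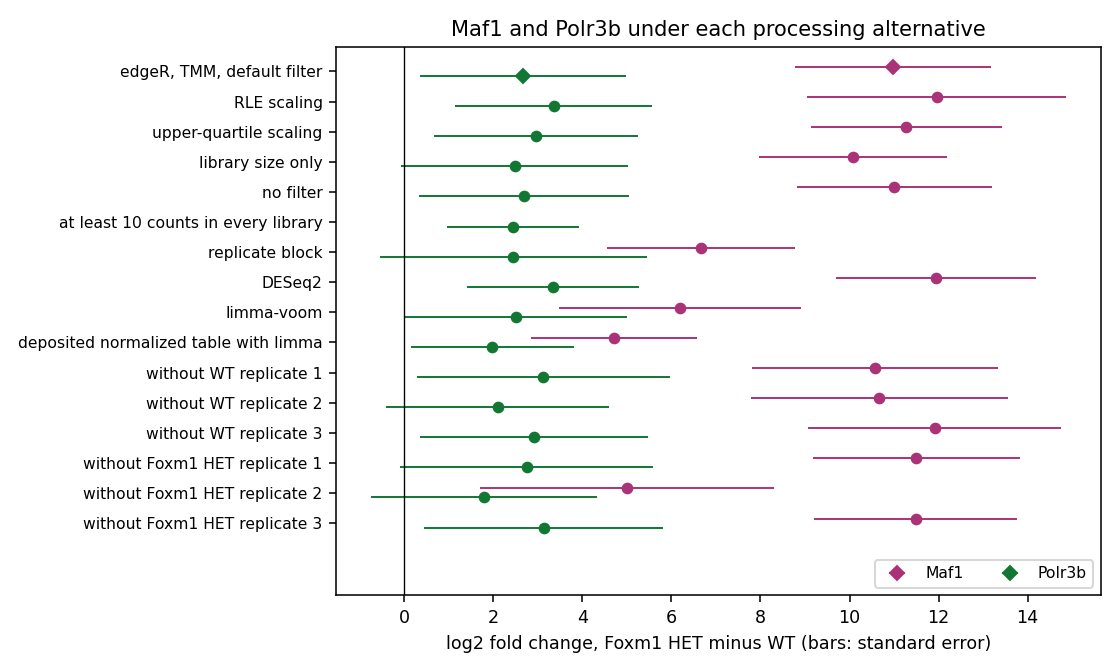
Log2 fold change, Foxm1 HET minus WT (horizontal axis, bars are SEs), of Maf1 and Polr3b under edgeR with TMM and its default filter (diamonds) and under each alternative (circles). Maf1 stays above 0 wherever it was fitted, from 4.71 to 11.96, and Polr3b stays above 0 in all 15 alternatives.

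Maf1 and Polr3b were above 0 in each alternative that could fit them, but the size of the Maf1 difference depended on the choice. Its log2 fold change was between 10.08 and 11.96 under the other scalings, 6.19 with limma-voom (adjusted p = 1) and 4.71 with limma on the deposited normalized table (adjusted p = 0.885). DESeq2 gave 11.95 and no p for Maf1, Polr3a, Polr3c or Polr3e, because it set their counts aside as outliers. Polr3b, with a smaller difference and reads in every library, ranged from 1.79 to 3.13 over the fits that each lacked 1 library, and did not pass the test in any of these fits.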

How the data were processed

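LT-HSCs were sorted from mice of each genotype, WT or Foxm1 HET, and 3 libraries of each were sequenced. According to the methods, single 50-base reads were mapped by STAR 2.7.2b to GRCm38. What the authors deposited are raw counts of reads on each gene, not normalized, and a normalized table on a log2 scale, for which the labels name limma. The counting program, its use of strand and its handling of reads with several matches are not given in the sources used here. The labels and the methods differ on RNA extraction and library kit: the methods name Trizol and a Clontech kit, and the labels add a column kit, Ribo-Zero depletion and a stranded kit. How far the library preparation keeps short RNAs, such as the products of Pol III, was not tested.

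Members and lists were chosen with earlier results of these data known. Counts were fitted with edgeR 4.0.16 in R 4.3.3 (default filter, TMM, quasi-likelihood test, Benjamini-Hochberg adjustment over 8195 genes, threshold 0.05), on all 6 libraries and with no covariate. SEs were taken as the log2 fold change over the root of F, and log2 CPM used a prior count of 2. TPM was computed from the counts and deposited gene lengths. p-values measure the spread between these libraries, whose biological coefficient of variation was 1.66, and depths of 14573002 to 25798509 reads leave counts under 10 imprecise. Alternatives were scaling by RLE, by upper quartile or by library size, other filters, a replicate block, DESeq2 1.42.0, limma-voom and limma 3.58.1 on the normalized table, and each library left out. Genes named were all members, Foxm1, in each list every called gene and the 2 with the smallest p, the 5 genes most like Maf1, its neighbours, and Pol III transcripts with 10 reads in every library. Crcp and the cell type markers named complete their lists, and other genes outside this rule are marked as such. Genes without a symbol (94.1% of identifiers had one) were counted and not named. Some genes of the lists are not reported here, and they are included in the counts given over genes.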

Additional observations from a re-analysis of the deposited data

How the results depend on the processing

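Of 27 genes called, RLE scaling left 10, upper-quartile scaling gave 43 and library size alone 7, of which 85.7% were higher in Foxm1 HET against 96.3% with TMM. The median log2 fold change of all genes moved from -0.26 with TMM to -0.13, 0.14 and 0.10. At least 10 counts in every library left 2516 genes and 0 calls by edgeR (157 with an unadjusted p under 0.05), which dropped 7 of the 8 members tested and with them the call of Maf1. DESeq2 called 408 genes, 2 of them in the pathway lists and 0 members. Of the 408, 70.8% were higher in Foxm1 HET, and 1 was among the 27 of the main fit. limma-voom called 4 genes and 0 members (Maf1 6.19, Polr3f -0.40), and limma on the normalized table gave 1 gene and 0 members (Maf1 4.71). Of the 4 genes of limma-voom, 0 were higher in Foxm1 HET. Neither limma fit shared a call with the 27. Leaving out each library in turn gave 0 to 29 genes, 0 to 1 members and 0 pathway genes. The call of Maf1 was lost without WT replicate 1, 2 or 3 or Foxm1 HET replicate 2, and 0 genes in all were called by edgeR without WT replicate 1 (615 with an unadjusted p under 0.05), WT replicate 2 (549) or Foxm1 HET replicate 2 (626).

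Left out in turn, the libraries gave log2 fold changes from 5.0 to 11.91 for Maf1, -2.60 to 8.09 for Polr3a, 1.79 to 3.13 for Polr3b, -4.59 to 8.88 for Polr3c, -1.31 to 8.77 for Polr3e, -3.80 to 1.70 for Polr3f, 2.25 to 7.91 for Polr3g and 0.57 to 4.12 for Polr3k. The cause of these shifts was not tested. With the replicate number as a block, 0 genes and 0 members were called (108 with an unadjusted p under 0.05), and Maf1 was at 6.66 (adjusted p = 1). Libraries with the same number did not deviate together (r of 0.0162, -0.0253 and -0.0687, against -0.0253 to 0.0552 for other pairs). All these r were small, so they cannot show whether the libraries were paired. The methods speak of 3 pairs of mice, no label gives the pairs, and the main fit used no pairing. Depth limits statements on genes under 10 reads: Polr3d was not tested, and Maf1 in WT rests on 6 to 18 reads.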
